A study of Mus musculus with 8 samples.

Results

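The comparison described here set RNA of clone 4 cells labelled as grown with 1000 ng/ml doxycycline against RNA of the same clone labelled as grown without it. It was chosen by those labels and consists of 2 of the 8 arrays of the series, on which the same 2 RNAs were hybridised with the dyes swapped. The cells were mouse B cell precursors (pro/pre-B cells) from the bone marrow of Pax5-/- mice, grown with interleukin 7 on gamma-irradiated OP9 cells, a bone marrow stromal line used as a feeder layer. Clone 4 is a single clone of these Pax5-/- cells that received retroviral vectors for the transactivator rtTA and for human Pax5 (huPax5) under a doxycycline-dependent promoter, so both RNAs of the pair lack mouse Pax5 and carry the transgene. The control RNA is labelled clone4 huPax5 (-Dox), naive, with 0 ng/ml doxycycline. The 6 other arrays set the same labelled control against clone 4 at 300 ng/ml, clone 4 at 10 ng/ml, and Pax5sz2. The last are Pax5-/- cells with rtTA and without huPax5. They are labelled as treated with doxycycline, and the labels give no dose for them. The labels name no replicate cultures, so each side is 1 RNA sample. Every ± below is the SD of the 2 arrays, which are technical, and no p-value can be given.

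Pax5 is the transcription factor that commits lymphoid progenitors to the B cell lineage. It switches on genes of the B cell receptor pathway and the B cell surface, such as Blnk, and switches off genes of other lineages and of progenitors, such as Notch1, Flt3 and the Fc receptor chain Fcer1g. Progenitors without Pax5 stop at the pro-B stage, keep growing in interleukin 7, and transcribe a mixture of lineage genes. In this system doxycycline lets rtTA bind the promoter of the transgene.

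A positive log2 ratio means a higher level in the RNA labelled 1000 ng/ml (the named RNA) than in the RNA labelled as control. That direction was not settled. Over all probes, the 1000 ng/ml arrays correlated negatively with the 300 ng/ml arrays that carried the same dyes, with Pearson r = -0.359 where the named RNA was in Cy5 and r = -0.46 where it was in Cy3. In the same order of dyes, r was -0.17 and -0.208 with the 10 ng/ml arrays, and -0.277 and -0.132 with the Pax5sz2 arrays. Between the comparisons at 300 ng/ml, 10 ng/ml and Pax5sz2, which share the labelled control, r ran from 0.334 to 0.837. These correlations are across probes, which are not independent replicates. The 1000 ng/ml arrays were rehybridised slides with an earlier scan, and per the file headers their spots were called well above background with a multiplier of 2.6 and without multiplicative detrending. The 6 others used 13 and detrending, so this batch and the dose cannot be told apart. All values are given as labelled, because no label gives another direction. If the channels of the pair were turned, every ratio below would change its sign and every higher gene would be a lower one, with the same size.

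The intensity of each RNA shows where the pair differs from the rest of the series. Ctsg, which encodes the granule protease cathepsin G, had a log2 level of 9.73 and 9.09 in the control RNA of the 1000 ng/ml arrays and of 14.73 and 14.36 in the named RNA. In the control RNA of the 6 other arrays its level was 14.54 at the lowest, 14.64 at the median and 14.81 at the highest. Blnk, the adaptor that couples the B cell receptor to its downstream kinases, was at 16.60 and 16.35 in the control RNA of the pair and at 12.20 and 12.34 in the named RNA. Its control level on the 6 other arrays ran from 11.82 through a median of 11.91 to 12.13. For both genes the control RNA of the other arrays thus lay beside the named RNA of this pair, not beside its control RNA. Over the 25 highest named features the median distance was 0.21 to the named and 3.45 to the control RNA of the pair. Over the 25 lowest it was 0.60 and 3.33, so the match was less close there. Cplx2, for example, was at 10.00 and 9.98 in the named RNA and at 8.92 to 9.36 in the other controls. Among the features that passed the 2-fold rule below, the mean control level of the 6 other arrays was nearer to the named than to the control RNA of the pair in 389 of 391 higher and 128 of 128 lower features. Among the 11241 features that did not pass, the same held for 7270. This count was chosen after the values were seen, it rests on intensities scaled together over 8 arrays of 2 scan settings, and its cause was not tested.

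**Figure D1:**
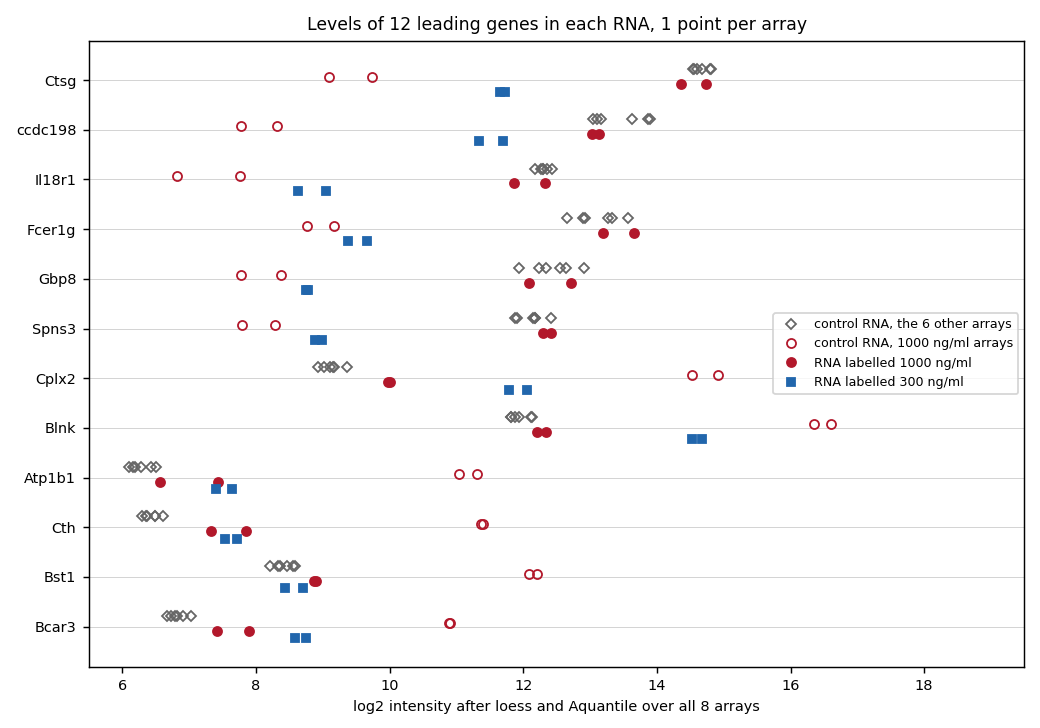
Log2 intensity (x axis, after loess and Aquantile over all 8 arrays) of the 6 highest and 6 lowest named genes of the 1000 ng/ml comparison, 1 point per array. Open red circles are the control RNA and filled red circles the named RNA of the 1000 ng/ml arrays, open grey diamonds the control RNA of the 6 other arrays, and blue squares the RNA labelled 300 ng/ml. For Ctsg the grey diamonds (14.54 to 14.81) sit with the filled circles (14.36 and 14.73) and away from the open circles (9.09 and 9.73).

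Of 27842 features (a gene symbol, or a probe without one), 11760 entered, because 1 RNA was well above background for them on the Cy5 and on the Cy3 array alike. The rule for naming a difference was a ratio of at least 2-fold in the same direction on both arrays. It was passed by 391 features that were higher (3.32%) and 128 that were lower (1.09%) in the named RNA, 519 in all (4.41%). The counts of list members past the size below stand beside these shares. At 4-fold on both arrays there were 79 higher and 27 lower features, and at 8-fold 20 and 7. The 2 arrays had r = 0.85 over the features that entered, and 0 features passed the size in opposite directions. The median ratio of all features was 0.03, with quartiles of -0.18 and 0.28. Without regard to size, 4739 features (40.3%) were above 0 on both arrays and 4034 (34.3%) below 0, and the counts of list members by sign below stand beside these shares. The control RNA was below the background call on both arrays in 50 of the higher features, and the named RNA in 11 of the lower ones. Their differences are given as lower bounds ("at least"), which were under 2-fold for 14 of these features. Counts keep such features by their measured ratios. A feature above background in 1 RNA alone enters through that RNA, which can move the counts and medians of lists away from 0. A bound sets the mean of the brighter RNA against that of the dimmer one. The dimmer RNA enters with its measured level or the lowest level called above background on that array, whichever is higher. A feature named only by an accession, clone or number is not named here (58 of the 519).

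**Figure D2:**
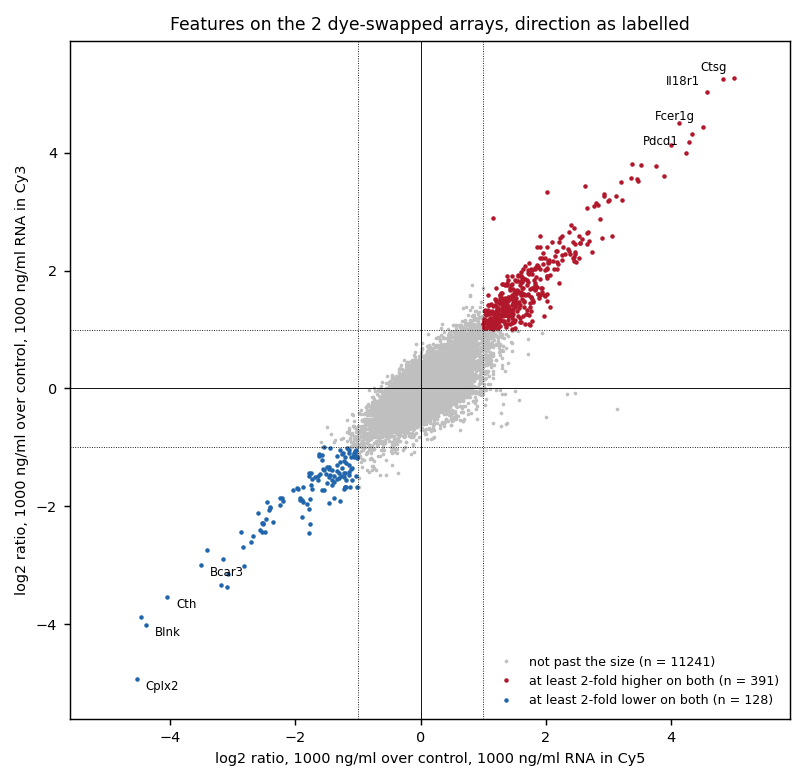
Log2 ratio of the 1000 ng/ml over the control RNA for the 11760 features that entered, on the array with the 1000 ng/ml RNA in Cy5 (x axis) and on the dye-swapped array (y axis), with the direction as labelled. Red points (391) were at least 2-fold higher and blue points (128) at least 2-fold lower on both arrays (dotted lines at log2 of 1 and -1). The coloured points follow the diagonal, from Cplx2 at -4.53 and -4.93 to Ctsg at 5.00 and 5.27.

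Mouse Pax5 was near the detection limit in the RNAs of the pair. Its probe for the coding transcript gave log2 ratios of -0.38 and -0.52, a mean of -0.45 ± 0.11, with the control RNA above background on 2 arrays and the named RNA on 0. A second probe, for a complementary DNA clone of the locus, was above background in neither RNA of the pair, with levels of 6.49 and 6.90 in the control and of 6.74 and 6.86 in the named RNA. On the 6 other arrays the same probe was above background in both RNAs. Its mean ratio there was 2.36 for the RNA labelled 300 ng/ml and 2.66 for the one labelled 10 ng/ml. In Pax5sz2, the cells without huPax5, it reached 3.02. In that order the probe for the coding transcript gave 0.23, -0.11 and -0.27. The mouse gene is knocked out and the transgene is human, and which RNA these probes detect in the cells was not tested, so they are not used as a check of the labels.

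Genes that Pax5 is known to activate were mostly lower in the RNA labelled 1000 ng/ml. Of 26 genes listed, 22 entered, 16 were at least 2-fold lower and 0 higher, and the median ratio was -1.54, beside 0.03 for all features. Cplx2, which encodes the SNARE-binding protein complexin 2, was the lowest named gene of the comparison. Its level was 14.53 and 14.91 in the control and 10.00 and 9.98 in the named RNA, a log2 ratio of -4.73 ± 0.28. Its 3 other detected probes gave -3.86, -3.35 and -0.81. Blnk followed at -4.20 ± 0.27. Atp1b1, a subunit of the sodium pump, was below the background call in the named RNA of both arrays, at least 14.1-fold lower. On each array the 2 RNAs of these genes lay apart, as the size rule that selected them requires.

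Bst1, the surface enzyme CD157, had levels of 12.09 and 12.20 in the control and of 8.90 and 8.87 in the named RNA. Its ratio stood at -3.26 ± 0.098, and Bcar3, an adaptor protein, at -3.24 ± 0.36 with the named RNA above background on 1 array. Ikzf3, the lymphoid zinc finger factor Aiolos, was at -3.08 ± 0.48, with levels of 11.07 and 10.49 in the control against 7.66 and 7.75. These genes form the lower end of the list. Tnfrsf19 (-2.41), Nedd9 (-1.82), Siglecg (-1.63) and Id3 (-1.60) lay between, and Bach2 (-1.49), Cd79a (-1.44), Lef1 (-1.34) and Ebf1 (-1.09) just past the size. Irf4, a regulator of late B cell stages, was at least 2.04-fold lower. For Ebf1, a factor that specifies the B lineage, another probe gave -0.27. Spib (-0.68 and -1.15), Plekha2, Irf8, Sdc4, Ceacam1 and Cd72 (0.04 and 0.07) did not pass, and Cr2, Fcer2a and Cd55 were among the members below background.

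Other parts of the B cell program differed in their direction. Of 17 B lineage transcription factors that entered, 5 were lower (Ikzf3, Id3, Irf4, Lef1 and Ebf1) and 1 was higher, with a median of -0.56. The higher one was Id2, which inhibits the E proteins that drive B cell development, at 1.72 ± 0.15. Tcf3, which encodes such E proteins, stood at -0.83 and -0.97 and did not pass. Ikzf1, Myb and Spi1 had ratios between 0.32 and 0.66 on each array.

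The pre-B receptor list had no shared direction. Of 13 members that entered, 3 were lower, 0 were higher and the median was 0.01. Besides Blnk and the receptor chain Cd79a, the lower one was Ighm, the immunoglobulin mu heavy chain, with levels of 17.51 and 17.47 in the control and of 16.49 and 16.43 in the named RNA. Its ratio was -1.04 ± 0.011, and a second probe gave -0.79. Cd79b, the partner chain of Cd79a, was at -0.57 and -0.43. The signalling genes Dok3 (1.46 and 0.97), Blk (1.29 and 0.65) and Plcg2 (0.70 and 1.03) had positive ratios and did not pass. The surrogate light chain genes Igll1, Vpreb1 and Vpreb2, which define the pre-B receptor, were below background in both RNAs by the probes of these arrays.

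The recombination genes entered with all 10 members, 0 of them past the size, and a median of -0.01. Dntt, the polymerase that adds bases at junctions, had 0.98 and 1.10, and the recombinase gene Rag1 had 0.85 and 0.87. Its partner Rag2 had -0.45 and -0.53, and Xrcc4 -0.72 and -0.80. Of the genes that mark the labelled pro/pre-B cell type, Rag1, Rag2, Dntt, Ebf1, Cd79b and Ighm thus entered, and the surrogate light chain genes did not. The mean over the members of the recombination list was 0.09 and over the pre-B receptor list -0.19, each of the other sign than its median. Among 12 B cell surface molecules that entered, 3 were higher and 2 lower. Ly6d, a marker of B-biased progenitors, was at 2.34 ± 0.071, Cd93, an early B cell marker, at 1.75 ± 0.22, and the Toll-like receptor relative Cd180 at 1.35 ± 0.021. Bst1 was among the lower ones. Cd22, Ms4a1, Cd40 and 5 others were below background.

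Genes that Pax5 is known to repress were mostly higher. Of 18 listed, 17 entered, 10 passed the 2-fold rule as higher and 0 as lower, with a median of 1.35, and all 17 were above 0 on both arrays. Fcer1g, the signalling chain shared by several Fc receptors, had levels of 9.17 and 8.77 in the control and of 13.66 and 13.20 in the named RNA. Its ratio was 4.46 ± 0.046, and 3.10 by a second probe. Jchain, which joins secreted immunoglobulin units, went from 11.65 and 11.96 to 15.54 and 15.58, a ratio of 3.75 ± 0.20, and 4.69 by its other probe. Notch1, the receptor that drives T cell fate, had 9.24 and 9.53 against 11.93 and 12.04, a ratio of 2.60 ± 0.13. The size rule by itself sets the RNAs of these genes apart on each array.

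The chemokine Ccl9 (2.31), the adhesion molecule Emb (2.26), the integrin chain Itgal (1.75), Nkg7 (1.62), the cytokine receptor Flt3 (1.60) and the adaptor Grap2 (1.14) were also higher. For Grap2 another probe gave 0.25, and for Nkg7 and Flt3 the control was above background on 1 array. The costimulatory receptor Cd28 is counted by its measured ratio, but its bound of at least 1.89-fold is under the size. The chemokine receptor Ccr2 (0.99 and 1.71) and the chemokine Ccl3 (0.82 and 1.76) missed the size on 1 array. Xbp1, the plasma cell factor, was at 0.23 and 0.01. The activated and repressed lists were put together from general knowledge of Pax5 targets, some of which were found in cells like these, and with earlier results of these data known, so they are no independent evidence of a direction.

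**Figure D3:**
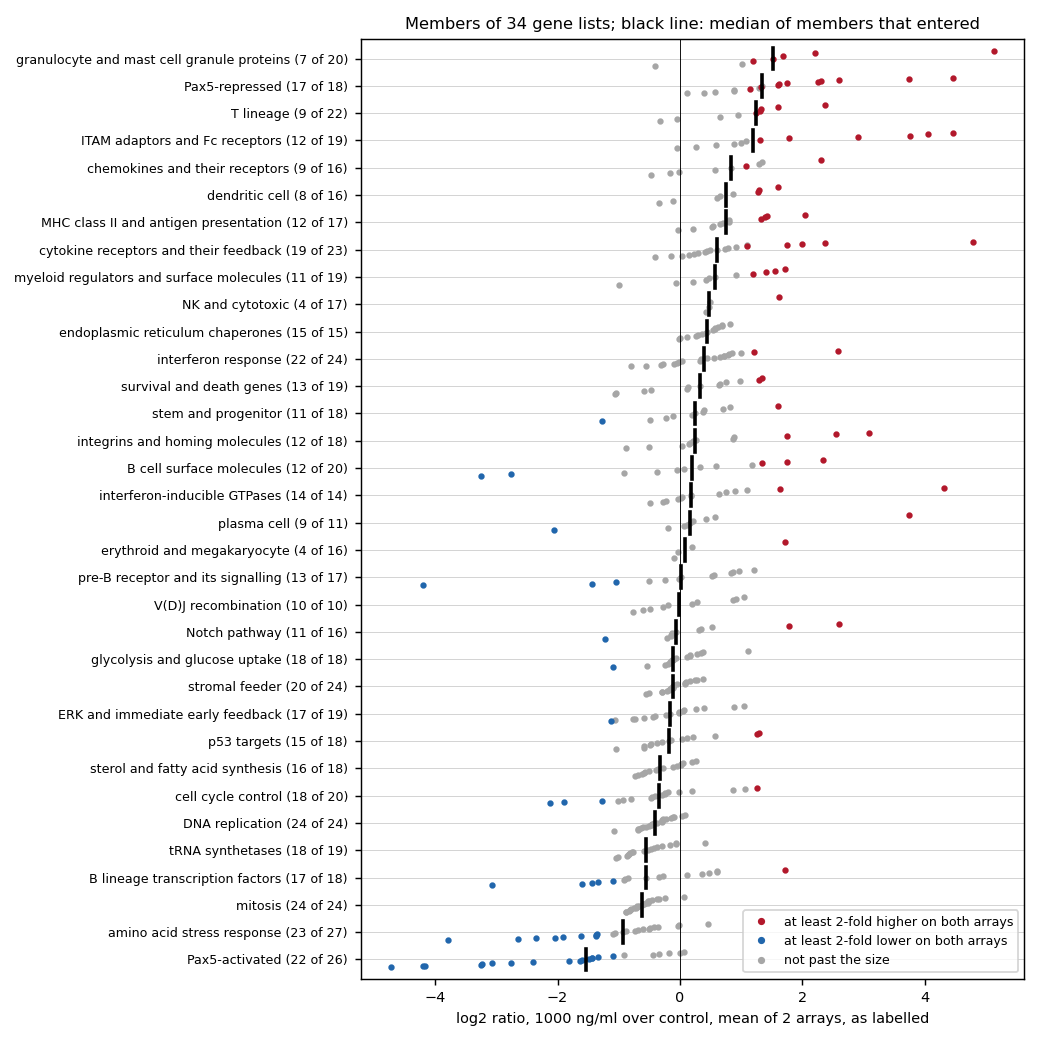
Log2 ratio at 1000 ng/ml over the control (x axis, mean of the 2 arrays, as labelled) of the members of 34 gene lists, 1 point per gene that entered, with the number that entered of those listed in brackets. Red points were at least 2-fold higher and blue points at least 2-fold lower on both arrays, grey points did not pass, and the black line is the median. Pax5-activated genes lie lowest (median -1.54), followed by amino acid stress genes (-0.93), and granule proteins (1.52) and Pax5-repressed genes (1.35) lie highest.

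Of the genes of immunoreceptor signalling in innate cells, some were higher and none lower by the 2-fold rule. The list holds adaptors, Fc receptors and related receptors, some of them inhibitory. Among them are adaptors with an immunoreceptor tyrosine-based activation motif (ITAM), which recruit Syk-family kinases, and receptors that use them. Which members carry the motif was not checked. Of 19 listed, 12 entered and 7 were below background. Among the 12, 6 were at least 2-fold higher, 0 lower, and 11 above 0 on both arrays, with a median of 1.19. Tyrobp, the adaptor DAP12, had levels of 8.58 and 8.27 in the control and of 12.57 and 12.40 in the named RNA, a ratio of 4.06 ± 0.098. Fcgr3, the activating low-affinity receptor for IgG, had 8.67 and 8.61 against 12.44 and 12.39, a ratio of 3.77 ± 0.011, while its other probe gave 0.64. Some of the receptors that use these adaptors were higher with them.

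The lectin receptor Clec4d was at 2.92 ± 0.23 and Trem1, a DAP12-coupled receptor, at 1.78 ± 0.088. Cd247, the T cell receptor zeta chain, was at least 2.26-fold higher. Clec5a (0.94 and 1.22), Trem3 (0.83 and 1.17) and Lilrb4a (0.75 and 1.01) did not pass on both arrays. The inhibitory receptor Fcgr2b, which has no activation motif, was at 0.03 and -0.12. Fcgr1, Ms4a2, Fcer1a, Trem2 and 3 others were below background.

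Of 20 granulocyte and mast cell granule proteins, 7 entered and 5 passed the 2-fold rule as higher, with a median of 1.52. Ctsg was the highest feature with a gene symbol, at 5.14 ± 0.19. Srgn, the proteoglycan that packs granules, was at 1.52 ± 0.074. The protease genes Mcpt8 and Cpa3 and the peroxidase gene Mpo were below background in the control, with bounds of at least 3.82-fold, 2.47-fold and 1.87-fold. They entered through the named RNA alone, which favours higher values in the count and median of the list. The lysozyme gene Lyz2 had 0.92 and 1.10. The 13 other members were below background in both RNAs, among them Elane, Prtn3, S100a8, S100a9 and the mast cell proteases Cma1 and Tpsb2. The granule genes that were seen are thus a minority of the list. On this pair 40.4% to 45.1% of spots passed the background call per dye, against 59.5% to 75.5% on the other arrays of the series. Below background is therefore not read as absence, here or in the lists below. Of 11 myeloid regulators and surface molecules that entered, 4 were higher: Nfe2 (1.72), Cd33 (1.40, with the control above background on 1 array), Klf4 (1.19) and the oxidase subunit Cybb, at least 2.63-fold. The myeloid factor gene Cebpa and the surface genes Itgam, Cd14 and Csf3r were below background. In bulk RNA, fewer cells of a type and less RNA per cell cannot be told apart, and the part of other cells in these differences was not tested.

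Markers of T cells, NK cells and dendritic cells were partly detected. Of 22 T lineage genes, 9 entered, 5 passed the 2-fold rule as higher and the median was 1.24. Il2ra, the alpha chain of the interleukin 2 receptor, was at 2.37 ± 0.12 and Cd5, a T and B1 cell receptor, at 1.61 ± 0.32. Zap70, the kinase that binds the zeta chain, was at least 2.13-fold higher, and Cd28 and Cd247 are given above. Zap70, Cd28 and Cd247 entered through the named RNA alone, which favours higher values in the count and median of the list. Cd3e was at 0.01 and -0.12, and the defining genes Cd3d, Cd3g, Tcf7, Gata3, Bcl11b, Cd4 and Cd8a were below background.

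Of 17 NK and cytotoxic genes, 4 entered and 1, Nkg7, was higher, while Ncr1, Gzmb, Prf1 and Eomes were below background. Among 8 dendritic cell genes that entered, Flt3 and the transcription factor Runx2 (1.30) were higher, and Cd7 had a bound of at least 1.82-fold, with a median of 0.76. Nfe2 was the 1 higher gene of 4 erythroid and megakaryocyte genes that entered, and Gata1 and Klf1 were below background. Among 11 stem and progenitor genes, Lmo2, a cofactor of early blood cells, was higher at 1.61 ± 0.073 and Mycn lower at -1.27 ± 0.19. In the Notch list, Notch1 was higher and its ligand gene Jag2 at least 3.25-fold higher. Of the target genes, Hes5 was lower at -1.22 ± 0.099, and Hes1 (0.30 and 0.38) and Nrarp (0.46 and 0.15) did not pass. The Notch list had a median of -0.06 and a mean of 0.33.

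Of 19 cytokine receptors and feedback genes that entered, 5 were higher and 0 lower, beside 3.32% higher and 1.09% lower among all features. On both arrays 16 were above 0, beside 40.3% of all features, and the median was 0.61. Il18r1, the binding chain of the interleukin 18 receptor, had levels of 7.76 and 6.82 in the control, below the background call, and of 12.33 and 11.86 in the named RNA, at least 23.3-fold higher. Its partner chain Il18rap was at least 3.32-fold higher. Ifngr1, a chain of the interferon gamma receptor, was at 1.75 ± 0.11, and the feedback inhibitor gene Socs1 at 1.09 ± 0.063. The shared chain Il2rg had 0.86 and 0.63, and Csf2rb2 1.00 and 0.83. Il7r, the receptor of the cytokine that these cells grow in, was at -0.61 and -0.18.

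Among 9 chemokine genes that entered, Ccl9 and the receptor gene Cxcr3 (1.08, control above background on 1 array) were higher, and Ccl5 was at -0.67 and -0.30. Among 12 integrins and homing molecules, Itgb7, the chain of gut-homing integrins, was at least 7.38-fold higher and Itgal was named above. Itgb3 was at 2.55 ± 0.041 by its brighter probe and at 0.19 by another. Itga4, Itgb1, Itgb2 and Itga5 lay between -0.13 and 0.39 on each array.

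Of 12 genes of antigen presentation that entered, 4 were higher and 11 above 0 on both arrays, with a median of 0.75. H2-DMb1, a chain of the peptide editor of class II molecules, was at 2.04 ± 0.11 (0.83 by another probe), the invariant chain Cd74 at 1.42 ± 0.44 and the peptide transporter subunit Tap2 at 1.39 ± 0.0077. H2-DMa was at least 2.16-fold higher. The class II genes H2-Aa, H2-Ab1 and H2-Eb1 and their activator Ciita were below background. Interferon response genes had a median of 0.40, with 2 of 22 higher: Oas2, an antiviral sensor, at 2.59 ± 0.20, and Oasl2 at 1.21 ± 0.060. Isg15 (0.10 and -0.28), Ifit1 (-0.16 and 0.07) and Usp18 (-0.79 and -0.80) did not pass. Of 14 interferon-inducible GTPases, Gbp8 and Gbp4 were higher. Gbp8 had levels of 8.38 and 7.77 against 12.71 and 12.08, a ratio of 4.32 ± 0.0093, and Gbp4 a ratio of 1.63 ± 0.027. Gbp2, Gbp3 and Gbp5 lay between -0.23 and 0.16 on each array, so members of the family differed.

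The 25 highest named features included many genes outside these lists. Pdcd1, the inhibitory receptor PD-1, had levels of 9.63 and 9.47 in the control and of 13.87 and 13.47 in the named RNA, a ratio of 4.12 ± 0.17. ccdc198 (5.04 ± 0.30), Spns3 (4.32 ± 0.27), a member of a family of lipid transporters, and Nrgn (4.23 ± 0.069), a calmodulin-binding protein of neurons, lay in the same range. The collagenase gene Mmp13 was at 3.60 ± 0.30 with the control above background on 1 array, and Il1r2, the decoy receptor of interleukin 1, at 3.50 ± 0.065. Several genes best known from other tissues were among them.

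Gria2, a glutamate receptor subunit, was at least 10.3-fold higher, and Crisp1, a secreted protein of the epididymis, at least 8.53-fold. Cd163l1, a scavenger receptor relative, was at least 6.35-fold higher. Slc17a8, a vesicular glutamate transporter, was at least 6.26-fold higher by 1 probe, while another gave 0.38. The motor protein gene Kif5a was at 3.21, the small GTPase gene Rab7b at 3.35, Ccdc88b at 3.18, and Fut7, the enzyme that finishes selectin ligands, at 3.11. Ctla2a (3.09), Cables1 (2.97) and Ctla2b (2.96), of which Ctla2a and Ctla2b are related in sequence, closed the range. Whether their probes tell these transcripts apart was not tested.

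Among the 25 lowest named features were genes of amino acid metabolism. Cth, which makes cysteine from cystathionine, had levels of 11.37 and 11.39 in the control and of 7.32 and 7.85 in the named RNA, where it was above background on 1 array. Its ratio was -3.80 ± 0.36. Asns, the asparagine synthetase, had 15.80 and 15.05 against 12.93 and 12.61, a ratio of -2.65 ± 0.30. Trib3, a pseudokinase induced by amino acid shortage, had 13.01 and 12.60 against 10.53 and 10.38, a ratio of -2.35 ± 0.18 (-1.0 by another probe). The glycine transporter gene Slc6a9 (-3.03) and the alanine transaminase gene Gpt2 (-2.30), which are not in the list below, were lower too.

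The amino acid stress list holds genes that the factor ATF4 is known to switch on when amino acids are short. Of 27 listed, 23 entered, 9 were lower, 0 higher and 20 below 0 on both arrays, with a median of -0.93. Besides Cth, Asns and Trib3 these were the glutamine transporter gene Slc1a5 (14.45 and 14.81 in the control against 12.56 and 12.63, a ratio of -2.04 ± 0.20), the transcription factor gene Atf5 (-1.91 ± 0.016), the one-carbon enzyme gene Mthfd2 (-1.61), the serine synthesis genes Psph (-1.38) and Psat1 (-1.37), and the transporter gene Slc1a4 (-1.36). Slc7a5 (-0.95 and -1.24), Slc7a3 (-0.97 and -1.15) and Nupr1 (-1.10 and -0.75) missed the size on 1 array. Atf4 itself had -0.39 and -0.33, Ddit3 0.00 and -0.05, and Ddit4 0.38 and 0.54. Of 18 genes of transfer RNA synthetases and transport that entered, 0 passed the size, and 16 were below 0 on both arrays, with a median of -0.56. Gars (-0.77 and -1.31) and Cars (-0.81 and -1.20) were the lowest of them.

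The promoters of the amino acid stress list are shown because a short element in them is known to bind ATF4 with a C/EBP partner. The letters TGATGNAA were searched on both strands of the RefSeq windows of GRCm38.p6, from 250 bases before to 50 after each start. They were present in 7 of 19 members that entered and have a window (36.8%), beside 2.65% of all features that entered and 4.51% of all genes in the table. Of 7 members past the size that have a window, 3 held the letters, and of the 12 others 4 did. Each line gives 30 bases, 5′ to 3′ on the strand of the gene, with the match in capitals, as TGATGNAA or as its reverse complement.
Asns, chr6:7693214-7693243, minus strand, ratio -2.65: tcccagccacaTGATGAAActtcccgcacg
Trib3, chr2:152344028-152344057, minus strand, ratio -2.35: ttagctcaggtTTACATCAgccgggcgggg
Slc1a4, chr11:20332699-20332728, minus strand, ratio -1.36: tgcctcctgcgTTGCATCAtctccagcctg
Nupr1, chr7:126625562-126625591, minus strand, ratio -0.93: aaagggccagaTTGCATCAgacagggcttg
Atf3, chr1:191183425-191183454, minus strand, ratio -0.88: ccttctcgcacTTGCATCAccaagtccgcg
Chac1, chr2:119351038-119351067, plus strand, ratio -0.50: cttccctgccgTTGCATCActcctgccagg
Pck2, chr14:55540152-55540181, plus strand, ratio -0.01: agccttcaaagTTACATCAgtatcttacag
The first 3 genes passed the size and the 4 others did not. The match starts 23 bases before the start of Asns, 4 before that of Slc1a4 and 14 after that of Trib3, inside the transcribed part. Among all features past the size the letters were in 6.06% of the lower and 5.88% of the higher ones that have a window. A match describes the sequence and is not a shown binding site.

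The same search with GCGTGAC, a core of the Pax5 site, found it in 0 of 18 Pax5-activated and 0 of 12 Pax5-repressed members with a window, beside 4.47% of all features that entered. CCCNNGGG, a core of the Ebf site, was in 5 of 18 (27.8%) and 1 of 12 (8.33%), beside 20.9%. No match says only that these letters are not in these windows.

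The other lowest named features had varied roles. Alpl, the tissue-nonspecific alkaline phosphatase, was at -3.22 ± 0.19 with the named RNA above background on 1 array. Ttll11, a tubulin-modifying enzyme, was at -3.11 ± 0.049 and Crhbp, a binding protein of a stress hormone, at -2.91 ± 0.14. Enpep, the surface peptidase BP-1 of pre-B cells, was at least 4.42-fold lower, and Tpst1, a sulfotransferase, at least 4.82-fold. The lens filament gene Bfsp2 was at -2.65 by its brightest probe, and its other probes gave -2.39 and 0.30. Sapcd1 (-2.58), Tmem255a (-2.49), Slfn2 (-2.48), Edaradd (-2.40), Prkd2 (-2.36) and Plxdc1 (-2.22) filled the rest. Slamf7, a receptor of plasma and NK cells that is in the plasma cell list, was at least 3.75-fold lower, whereas Jchain in the same list was higher.

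Of the cell cycle lists, only that of the regulators had members past the size, beside 4.41% of all features. A count of 0 in a list of 24 is near that share. Of 24 mitosis genes, 0 passed and 22 were below 0 on both arrays, with a median of -0.62. Ccnb1 (-0.96 and -0.82) and Ccna2 (-0.85 and -0.91), cyclins of mitosis and S phase, were the lowest of them. Of 24 DNA replication genes, 0 passed and 20 were below 0 on both arrays, with a median of -0.40, and the lowest was the ribonucleotide reductase subunit Rrm2 (-0.78 and -1.39). Among 18 regulators 3 were lower and 1 higher. Ccnd3, a D cyclin of lymphoid cells, had levels of 13.43 and 14.04 in the control and of 11.65 and 11.58 in the named RNA, a ratio of -2.12 ± 0.48. E2f2 was lower at -1.90 ± 0.00088 and Mycn as given above. Cdkn1a, the p21 inhibitor of cyclin-dependent kinases, was higher at 1.26 ± 0.044, with 10.21 and 10.34 against 11.44 and 11.63. Ccnd2 (0.86 and 0.86) and Cdk6 (1.15 and 0.99) had positive ratios and did not pass.

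Among 13 survival genes, Bcl2, which protects from apoptosis, was at 1.35 ± 0.12 (0.40 and 0.64 by other probes) and the death gene Pmaip1 at 1.30 ± 0.15. Bcl2l1 (-0.65 and -1.46) and Bbc3 (-1.11 and -0.98) did not pass. Of 15 p53 targets, Cdkn1a and Pmaip1 were the 2 higher ones, the median was -0.18, and Mdm2 and Bax were below 0 on both arrays. Of 17 ERK feedback and immediate early genes, Jun was lower at -1.12 ± 0.040, Dusp6 was at -0.98 and -1.15, and the median was -0.16. Endoplasmic reticulum chaperones had 0 of 15 past the size and 13 above 0 on both arrays, with a median of 0.45. Sterol synthesis genes had 0 of 16 past the size (median -0.32). Of 18 glycolysis genes only Pfkp was past it, lower at -1.10 ± 0.11 (-0.64 by another probe), with a median of -0.11.

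Genes of the feeder layer did not separate the RNAs of the pair. Of 24 stromal genes 20 entered, 0 passed the size, the median was -0.11, and single means ran from -0.56 for Pdgfra to 0.37 for Acta2. Dcn, Lum, Bgn and Kitl were below background. At 300 ng/ml the same list had a median of 0.93.

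The values of the leading genes in the other comparisons of the series are set side by side here. All of them share RNA labelled as the same control, so likeness between them is no separate evidence. The order is 1000 ng/ml, 300, 10 and Pax5sz2. Ctsg had 5.14, -2.98, 0.04 and -1.68 in that order. Tyrobp stood at 4.06, -3.39, -1.35 and 0.10, and Fcgr3 at 3.77, -2.70, -0.94 and -4.08. Jchain had 3.75, -1.35, -0.10 and 1.40. For these genes the 1000 ng/ml value differed in sign from the 300 ng/ml value.

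In the same order Cplx2 had -4.73, 2.65, -0.83 and 0.82, and Blnk -4.20, 2.62, -0.90 and -3.41. Not every leading gene had opposite signs. Bst1 gave 0.35 and -0.14 on the 2 arrays at 300 ng/ml, and Plxdc1 was at -0.98 there and at -2.22 at 1000 ng/ml. Asns gave 0.00 and 1.83 on the arrays at 300 ng/ml, so its value there rests on 1 of them. For Ctla2a and Tnfrsf19 an outlier spot left 1 array at 300 ng/ml, with -1.65 and 1.58. The sizes also differed: Pdcd1 had 4.12 at the highest dose and -1.04 at 300 ng/ml.

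**Figure D4:**
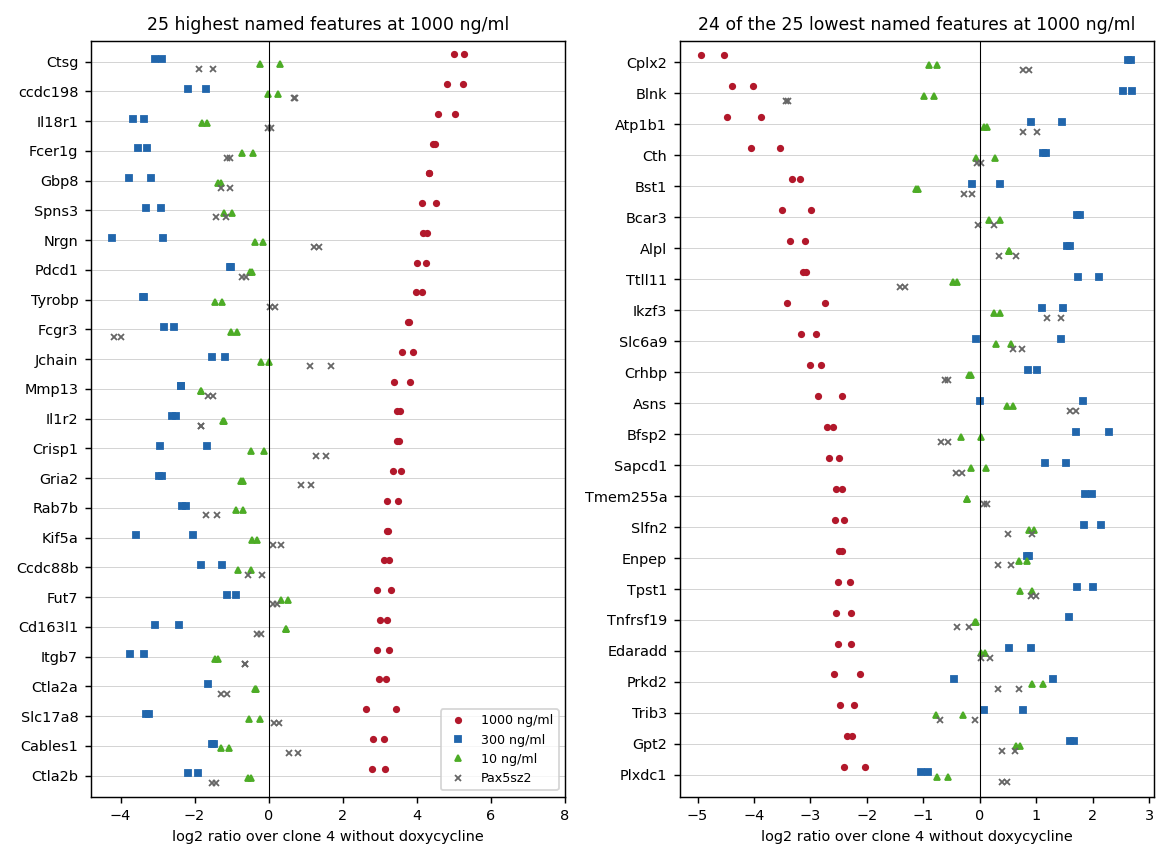
Log2 ratio over clone 4 without doxycycline (x axis, 1 point per array) of the 25 highest (left) and 24 of the 25 lowest (right) named features of the 1000 ng/ml comparison. Red circles are the 1000 ng/ml arrays as labelled, blue squares 300 ng/ml, green triangles 10 ng/ml and grey crosses Pax5sz2. Ctsg, for example, lies at 5.00 and 5.27 at 1000 ng/ml and at -3.06 and -2.89 at 300 ng/ml, while Plxdc1 lies below 0 in both.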

How the data were processed

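TRIzol was used for total RNA and the Quick Amp kit for the dyes, per the labels' protocols. The deposited spot tables give, per the file headers, a mean intensity and a local background (median) for either dye, without normalization. They also hold processed intensity values and a log10 ratio made from them by Agilent Feature Extraction 10.5.1.1 (named in the submitters' processing notes without a version). The deposited series matrix holds the same log10 ratio, to within 5e-06, once arrays with the named RNA in Cy3 are inverted. Its columns have a median of 0.

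Each array has 43790 spots, 2256 of them controls. On the 1000 ng/ml pair 40.4% to 45.1% of the other spots passed the background call per dye, on the 6 other arrays 59.5% to 75.5%, and 0 were saturated. The package limma 3.58.1 in R 4.3.3 was used for normexp (offset 50), loess within arrays with controls at weight 0, leaving out outlier spots (38 and 115 on the pair) and averaging of the spots of each of 41174 probes. Names came from the RefSeq table of GRCm38.p6 by accession (23374 probes), symbol (6733) or synonym (2919), and 8148 probes had none. A gene is given by its brightest probe, and another detected probe is named where it lies within 0.5 of 0 or has the opposite sign. Levels per channel were scaled by Aquantile over 8 arrays.

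The size rule was chosen with 1 RNA per side in mind. Named genes are Pax5, the 25 highest and 25 lowest symbols past the size, and from each of 34 lists the members past it and up to 3 others. Some genes that this rule names are not reported here. Members and lists were chosen with earlier results of these data known. Further members that did not pass the size were chosen after their values were seen. The transfer RNA synthetase list was matched through older symbols. A planned search for protein motifs was not run, since no protein sequences were used here. Normexp, loess and the size rule were also run on simulated ratios, built on the mean intensities of the pair. The other steps were not simulated. Figures used Python 3.11.15 and matplotlib 3.10.9. The number of arrays limits the precision.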

Additional observations from a re-analysis of the deposited data

Results flagged for a closer look

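Of the 10 highest and 10 lowest named features of the 1000 ng/ml comparison, 17 were at least 2-fold in the opposite direction on both arrays at 300 ng/ml. These differences between doses were not tested. The features were picked for their large ratios at 1000 ng/ml, and the arrays of both doses correlated negatively over all probes. The share over all features is not given, so the count is not read as particular to these genes. The higher ones, with their ratio at 1000 ng/ml as labelled and then at 300 ng/ml, were Ctsg (5.14 and -2.98), ccdc198 (5.04 and -1.94), Fcer1g (4.46 and -3.40) and Gbp8 (4.32 and -3.48). Spns3 (4.32 and -3.11), Nrgn (4.23 and -3.54), Pdcd1 (4.12 and -1.04), Tyrobp (4.06 and -3.39) and Fcgr3 (3.77 and -2.70) followed. Il18r1 had a measured 4.80 and -3.52, but its control RNA at 1000 ng/ml was below the background call on both arrays, so the first value stands only as at least 23.3-fold higher. The lower ones were Cplx2 (-4.73 and 2.65), Blnk (-4.20 and 2.62), Cth (-3.80 and 1.15), Bcar3 (-3.24 and 1.75), Alpl (-3.22 and 1.57), Ttll11 (-3.11 and 1.92) and Ikzf3 (-3.08 and 1.28), where for Cth, Bcar3 and Alpl the named RNA at 1000 ng/ml was above background on 1 array. Atp1b1, Bst1 and Slc6a9 were the 3 leading genes that did not meet this condition.

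The median of a gene list had opposite signs at 1000 and 300 ng/ml on all 4 arrays for 25 of 34 lists, again untested. Some lists share members, and the arrays of both doses correlated negatively over all probes, so the lists are not separate observations. In the order 1000 and 300 ng/ml, medians above 0 at 1000 ng/ml were granule proteins 1.52 and -1.54, Pax5-repressed genes 1.35 and -0.97, T lineage 1.24 and -1.01, ITAM adaptors and Fc receptors 1.19 and -0.92, dendritic cell 0.76 and -0.88, and antigen presentation 0.75 and -0.53. Smaller ones were cytokine receptors 0.61 and -0.74, myeloid regulators 0.58 and -0.57, NK and cytotoxic 0.48 and -0.71, chaperones 0.45 and -0.24, survival genes 0.32 and -0.71, stem and progenitor 0.25 and -0.08, integrins 0.24 and -0.79, and B cell surface 0.19 and -0.38. Medians below 0 at 1000 ng/ml were Pax5-activated genes -1.54 and 0.54, amino acid stress -0.93 and 0.69, mitosis -0.62 and 0.25, B lineage factors -0.56 and 0.10, and transfer RNA synthetases -0.56 and 0.39. Further ones were DNA replication -0.40 and 0.26, cell cycle control -0.35 and 0.06, p53 targets -0.18 and 0.19, and stromal feeder -0.11 and 0.93. The pre-B receptor list (0.01 and -0.50) and the recombination list (-0.01 and -0.23) met the condition through their medians on single arrays, and their medians of means are near 0.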

How the results depend on the processing

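Each side of the comparison is 1 RNA sample, so the settings below show how the counts depend on processing, not on biology. The counts of higher and lower features were 391 and 128 as reported. Median centring without loess gave 146 and 48, and Agilent processed signals and the deposited matrix 635 and 229 each. A 3-fold size gave 148 and 48, and turning the sign 128 and 391. Leaving out 1 array gave 501 to 593 higher and 178 to 187 lower features, the 593 without the array that had the named RNA in Cy3. No background correction, offset 16, kept outliers, median probes and the 3 other filters moved both counts by less than 1.5 times. The cause of the larger moves was not tested. The share of higher calls lay between 72.8% and 76.9% in all but the turned setting. Under the 6 alternatives of scaling, background and outliers, 143 higher and 47 lower features passed in every one, and all 50 leading genes did. The Agilent signals and the deposited matrix, counted as 2 of the 6, hold the same ratios. Median centring alone kept 143 and 47 of the reported features. The leading genes were chosen for the largest ratios, so that they passed follows largely from that choice. On single arrays the median of the glycolysis list ran from -0.25 to 0.07 and that of the ERK list from -0.33 to 0.08, turning above 0 with the named RNA in Cy5. Many single values moved by at least the SD of the 2 arrays. The Agilent signals moved 120 of the genes checked, offset 16 moved 94, median centring 51 and no background correction 50. No named gene past the size changed sign. No paired analysis was possible because each comparison has 1 RNA per side and no replicate numbers in the labels.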
